A study of Oryza sativa Japonica Group with 12 samples.

Results

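The response of wild-type rice seedlings to 6 h of mannitol was described across all loci that they expressed at a measurable level. A locus was included when its FPKM, the count of sequenced fragments relative to gene length and library size, was 1 or more in at least 3 of the 6 wild-type (WT) libraries. Of 29358 loci in the table, 21409 met this rule. The WT mannitol group held 3 libraries of 5-day-old seedlings kept for 6 h in 800 mM mannitol, and the WT control group held 3 libraries of 5-day-old seedlings without mannitol. The labels give the WT as NIP and name the whole seedling as the tissue, with a growth room at 14 h of light and 10 h of dark. The other 6 libraries came from raf-b2/3, with and without the same treatment. In this line RAF kinases of the B2 and B3 groups are disrupted, per the labels. For the WT response the raf-b2/3 libraries entered the fit only to help estimate the spread between libraries. Their own values were used for the marker sums and for comparing the mannitol response between the lines. Nothing in the labels tells whether the 3 libraries of each group are separate cultures, and the p-values therefore reflect only the variation among these libraries, part of which could be technical.

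Mannitol is a sugar alcohol that plant cells take up slowly, so at high concentration outside the root it draws water out of the tissue and lowers turgor. Plants answer such osmotic stress by making abscisic acid (ABA). ABA receptors then bind and inhibit clade A type 2C protein phosphatases, which frees SnRK2 kinases to phosphorylate transcription factors of the bZIP class, and these switch on genes for protective proteins such as dehydrins. Kinases of the Raf type act upstream of SnRK2 kinases. Growth, photosynthesis and nutrient uptake are processes known to slow when water is scarce, while sugars and proline are known to accumulate as solutes.

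The 6 WT libraries held 37426826 to 39319539 fragments, as recovered from the FPKM steps, and in each of them between 20531 and 21010 loci reached 1 FPKM. In a principal component analysis of these 6 libraries, component 1 (86.9% of the variance) separated mannitol from control. Pearson's r across loci, which are not independent of each other, was 0.992 to 0.993 among mannitol libraries, 0.981 to 0.991 among control libraries and 0.889 to 0.899 between the groups. WT control 2 stood apart from the other controls along the second component (6.2% of the variance). In that library 309 loci were lower by at least 1 on the log2(FPKM + 1) scale than the mean of WT control 1 and 3, and 54 were higher by as much. Among 16 genes taken as markers of the root (LSI1, LSI2, 4 phosphate transporters, 2 nitrate transporters and 8 iron genes), 13 were lower in WT control 2 than in both other controls. Their summed FPKM was 183.5, 160.6 and 160.2 in the mannitol libraries, against 822.9, 238.1 and 908.1 in WT control 1, 2 and 3. In raf-b2/3 it was 133.7, 186.3 and 152.3 under mannitol, against 792.2, 831.9 and 980.2 in control, so of the 6 control libraries of both lines only WT control 2 lay close to the mannitol libraries. Of the 12 root markers that met the expression rule, 6 fell under mannitol (LSI1, LSI2, NAS1, NAS2, YSL15 and NAAT1), 3 rose (PT1, whose call was lost in 4 of 13 alternative fits, PT4 and PT8) and 3 did not pass. No marker was at 0 in all WT libraries. The 5 markers of green shoot (CAB1R, CAB2R, PSAH, RCA and FBP1) summed to 7454 to 8736 FPKM under mannitol, against 10303 to 11209 FPKM in control. Only 2 of these 5 fell (RCA and FBP1), and 3 did not pass (CAB1R, CAB2R and PSAH), so the lower sum is not shared by all of them. The 5 genes taken as marks of seed remnant (2 glutelins and 3 alpha-amylases) summed to 201 to 363 FPKM under mannitol, against 38.4, 496.7 and 403.4 FPKM in WT control 1, 2 and 3, nearly all of it AMY1A. In such bulk samples fewer cells of a type and less RNA per cell cannot be told apart, and the part that differences in tissue makeup had in any result below was not tested.

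After 6 h of mannitol, 1825 loci were higher and 1213 lower by limma-trend (Benjamini-Hochberg adjusted p under 0.05 with a change of 1 log2 unit or more). These are 8.52% and 5.67% of the loci tested. At the adjusted p alone, 8307 loci (38.8%) were higher and 5486 (25.6%) lower, and these 2 shares are the background for every count of list members that rose or fell. Every mannitol library lay above every control library for 42.7% of loci, and below for 27.4%. Log2 changes are mannitol minus control on the log2(FPKM + 1) scale, where the added 1 makes the changes of weakly expressed genes look smaller. The median change of all loci was 0.10, the middle of the distribution ran from -0.29 (25th percentile) to 0.46 (75th), and the 1st and 99th percentiles were -1.72 and 2.57. The median moved to 0.01 with median-of-ratios scaling and to -0.01 with quantile normalization, a shift of about the size of the median itself, and the counts were then 1610 higher with 1465 lower and 1522 higher with 1509 lower. The size of the excess of higher over lower loci therefore depends on the scaling.

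The loci called higher and lower differed between the groups in the share of all FPKM they held. The 1825 higher loci made up 12.3%, 11.8% and 11.8% of the FPKM total in the mannitol libraries, against 3.35%, 3.26% and 3.27% in the control libraries. The 1213 lower loci made up 5.00%, 5.29% and 5.53% under mannitol, against 14.2%, 13.6% and 13.4% in control. Since the calls were made from the same values, these shares describe the size of the called part and are no test. Calls of loci that fell were unevenly spread over expression levels. Among 946 loci with a mean of 100 FPKM or more over the 6 libraries, 12.4% were lower and 8.14% higher, while among 2677 loci with a mean below 2 FPKM 3.96% were lower and 8.59% higher. The 10 most abundant loci of each library held 4.61% to 5.24% of the total under mannitol, against 6.45% to 7.07% in control. Of the 21409 loci, 209 had 1 FPKM or more in every mannitol library and less than 0.5 FPKM in every control library, and 184 of these were called higher. The reverse held for 81 loci, of which 63 were called lower. By this definition the loci met the expression rule only through the group where they were high. They were mostly low even there, with a median of 2.14 FPKM in the mannitol group for the first set and 2.19 FPKM in the control group for the second.

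**Figure D1:**
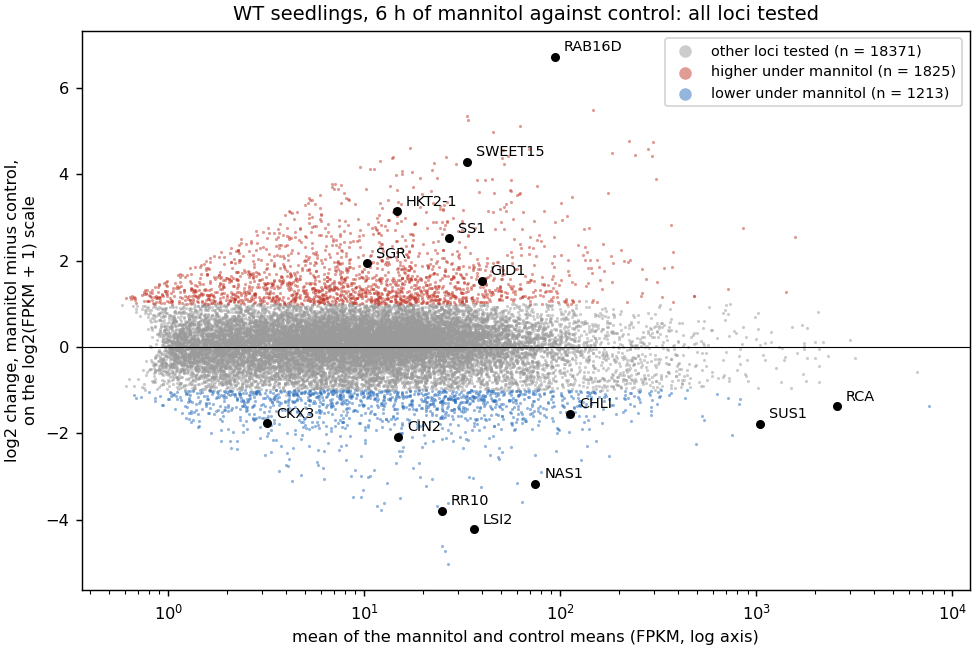
Each point is 1 of 21409 loci in WT seedlings, with the mean of its mannitol and control means on the horizontal axis (FPKM, log axis) and the log2 change, mannitol minus control, on the vertical axis. Red points are the 1825 loci called higher, blue points the 1213 called lower, and black points are genes described in the text, from RAB16D at 6.73 to LSI2 at -4.22.

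Gene names were attached to 396 loci in 57 lists, and 370 of them met the expression rule. Of these 370, 169 rose, 103 fell and 98 did not pass. By 1 log2 unit or more, 81 rose and 41 fell. The 26 named genes below the rule had low levels in both groups, and the highest group mean among them was 1.44 FPKM (IRT1 in control). The largest changes of all went to loci with and without a name here. Apart from RAB16D, the largest rises were at LOC_Os01g50910 on chromosome 1, with 315.6, 302.7 and 244.6 FPKM in the mannitol libraries, against 5.56, 9.15 and 2.80 FPKM in the control libraries, and LOC_Os05g31670 on chromosome 5, with 67.7, 75.4 and 54.1 FPKM under mannitol, against 0.486, 0.754 and 0.660 FPKM in control. Their log2 changes were 5.50 (SE 0.3, adjusted p 2.8e-08) and 5.34 (SE 0.24, adjusted p 6.7e-09). The largest falls were at LOC_Os12g35330 on chromosome 12, with 0.851, 0.164 and 0.978 FPKM under mannitol, against 47.8, 53.7 and 55.7 FPKM in control, and LOC_Os01g40560 on chromosome 1, with 0.615, 0.888 and 0.530 FPKM under mannitol, against 66.1, 17.71 and 68.8 FPKM in control. Their log2 changes were -5.04 and -4.73. The low control value of the last locus is that of WT control 2.

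**Figure D2:**
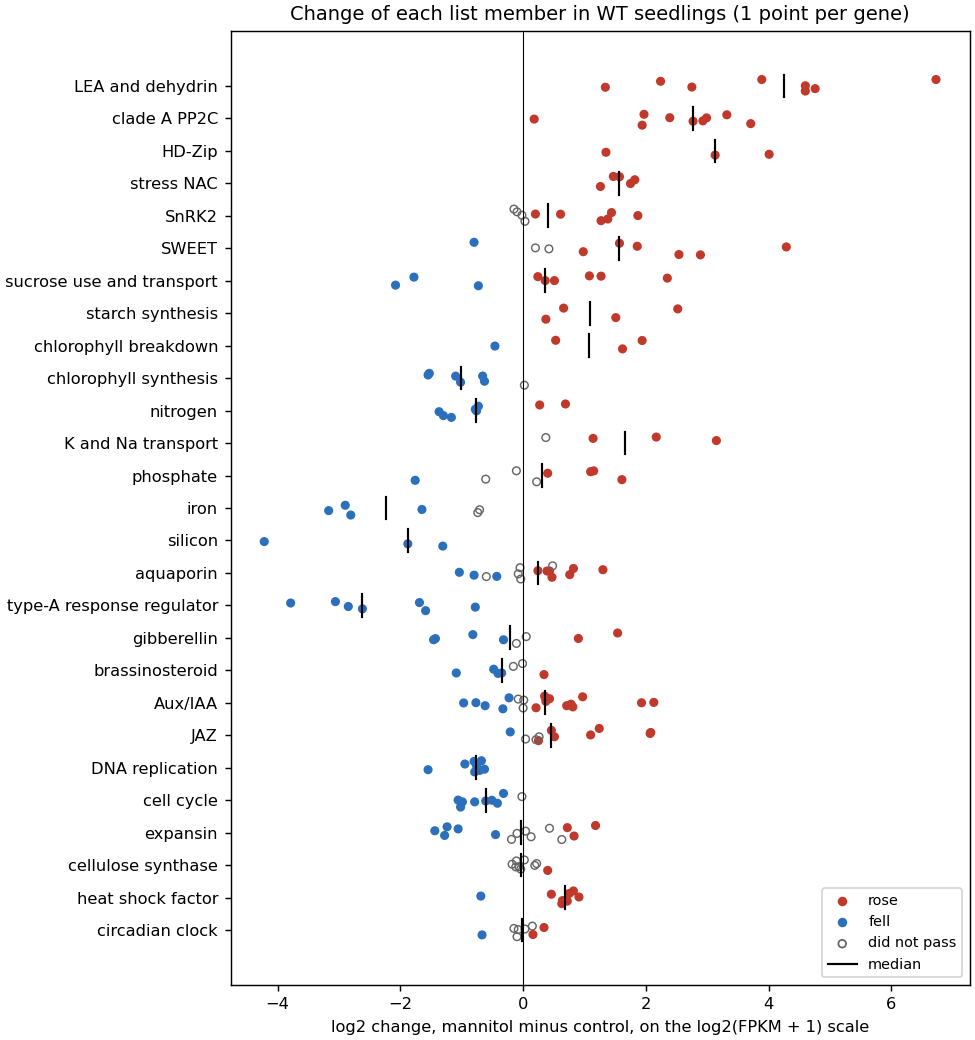
Each point is 1 named gene of the lists shown, placed by its log2 change, mannitol minus control, in WT seedlings; red genes rose, blue genes fell and open circles did not pass an adjusted p of 0.05, and black bars are list medians. With all libraries, the LEA and dehydrin list has the highest median (4.24) and the type-A response regulators the lowest (-2.62). Without WT control 2 the median of the iron list (-2.95) was the lower of the 2.

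Of the 10 largest rises among the named genes, 5 were of LEA and dehydrin genes, 2 of clade A phosphatase genes and 1 of an HD-Zip factor gene, in lists chosen with earlier results of these data known. All 8 LEA and dehydrin genes rose, with a median log2 change of 4.24 beside 0.10 over all loci. Their products coat proteins and membranes in drying cells. RAB16D (LOC_Os11g26750), a dehydrin gene of a tandem cluster on chromosome 11, had 179, 229 and 151 FPKM in the mannitol libraries, against 0.715, 0.344 and 1.29 FPKM in the control libraries. Its neighbour RAB16A (LOC_Os11g26790) had 555, 614 and 446 FPKM under mannitol, against 35.4, 25.8 and 10.02 FPKM in control, and LEA3-1 (LOC_Os05g46480), which encodes a group 3 LEA protein, had 562, 669 and 466 FPKM under mannitol, against 38.3, 27.1 and 7.04 FPKM in control. No mannitol library overlapped a control library for any of the 3. WT control 3 was lower than the other controls for RAB16A and LEA3-1. Without it LEA3-1 rose by 4.08, against 4.76 with all libraries, and RAB16B by 3.25, against 3.89. The log2 change of RAB16D was 6.73 (SE 0.26, adjusted p 2.9e-09) and that of RAB16A and RAB16C 4.6 each. RAB16A to RAB16D are close copies, and if reads were shared among them the split of the rise between the copies is uncertain.

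All 9 clade A phosphatase genes rose, although they encode the inhibitors of SnRK2 kinases. PP2C68 (LOC_Os09g15670) had 31.8, 34.1 and 35.2 FPKM in the mannitol libraries, against 2.13, 2.76 and 0.571 FPKM in the control libraries. PP2C09 (LOC_Os01g62760) had 96.1, 95.5 and 99.98 FPKM under mannitol, against 9.16, 8.34 and 8.91 FPKM in control, with little spread within either group. The log2 changes were 3.71 for PP2C68, 3.32 for PP2C09, 2.99 for PP2C30 and 2.93 for PP2C49, with adjusted p of 2e-06, 2.1e-09, 1.8e-05 and 4.9e-08. PP2C53, named after its value was seen, had the smallest rise (0.18 (SE 0.07, adjusted p 0.045)), and this call was lost in 9 of 13 alternative fits. Of 10 SnRK2 kinase genes (SAPK1 to SAPK10) 6 rose, none fell and 4 did not pass. SAPK6 (LOC_Os02g34600) reached 37.5, 34.6 and 35.1 FPKM under mannitol, against 10.4, 8.65 and 8.28 FPKM in control, a log2 change of 1.87 (SE 0.09, adjusted p 8.3e-09). SAPK1, SAPK3 and SAPK4 rose by 1.44, 1.38 and 1.27. The bZIP factors BZIP23 (LOC_Os02g52780) and TRAB1 (LOC_Os08g36790), which act on ABA-responsive promoters, both rose, by 1.88 and 1.58. For BZIP23 the values were 32.9, 34.1 and 34.5 FPKM under mannitol, against 9.71, 8.25 and 7.54 FPKM in control.

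Of 5 genes of ABA turnover 3 rose, with genes of synthesis and of breakdown among them. NCED3 (LOC_Os03g44380), which encodes the dioxygenase that commits carotenoids to ABA synthesis, had 2.92, 3.32 and 3.28 FPKM under mannitol, against 0.803, 0.972 and 0.115 FPKM in control. ABA8OX2 (LOC_Os08g36860), a hydroxylase that breaks ABA down, had 17.41, 18.3 and 17.6 FPKM under mannitol, against 4.46, 3.71 and 3.44 FPKM in control. Their log2 changes were 1.4 (SE 0.19, adjusted p 4.9e-05) and 1.95 (SE 0.13, adjusted p 1.3e-07). Without WT control 3 that of NCED3 was 1.15. ABA8OX1 also rose (0.73), while the epoxidase gene ZEP (log2 change 0.03) and ABA8OX3 (0.4) did not pass. All 5 stress NAC factors rose, with NAC6 at 94 ± 1.62 FPKM under mannitol and 26.1 ± 3.72 FPKM in control (SD, n = 3 each) and log2 changes of 1.82 for NAC6, 1.75 for NAC3, 1.57 for NAC45 and 1.47 for NAC2. All 3 HD-Zip factors rose, HOX24 by 4.01, HOX22 by 3.13 and HOX6 by 1.35. HOX24 (LOC_Os02g43330) had 31.8, 29.2 and 29.2 FPKM in the mannitol libraries, against 1.43, 1.7 and 0.0959 FPKM in the control libraries, with WT control 3 again the lowest. Of 4 DREB factors, which bind dehydration-responsive elements, DREB1A (1.73), DREB2A (1.1) and DREB2B (0.64) rose. DREB1C, with 2.88, 2.45 and 3.92 FPKM under mannitol, against 1.44, 3.09 and 0.0227 FPKM in control, did not pass (adjusted p 0.078) and did so without WT control 2 (log2 change 1.35, adjusted p 0.0079).

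Genes for compatible solutes rose as well. Of 7 genes in the osmolyte list 6 rose and BADH2 did not pass (log2 change near 0, adjusted p 0.96). P5CS2 (LOC_Os01g62900), which encodes the first enzyme of proline synthesis from glutamate, had 42, 48.7 and 43.7 FPKM under mannitol, against 10.8, 11.4 and 10.4 FPKM in control. Its log2 change was 1.95 (SE 0.09, adjusted p 7.7e-09). OAT, of the ornithine route to proline, rose by 1.26, the betaine aldehyde dehydrogenase gene BADH1 by 1.27 and the trehalose phosphate phosphatase gene TPP2 by 1.07.

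Sugar transport and starch genes were among the strongest movers outside the ABA pathway. Of 9 SWEET genes, whose products let sugars pass through membranes along their gradient, 6 rose, 1 fell and 2 did not pass (median log2 change 1.57). SWEET15 (LOC_Os02g30910) had 70.5, 64.3 and 57.8 FPKM in the mannitol libraries, against 2.81, 2.46 and 1.8 FPKM in the control libraries. SWEET2B (LOC_Os01g50460) had 48.3, 44.9 and 47.9 FPKM under mannitol, against 5.67, 5.18 and 5.64 FPKM in control. SWEET15 and SWEET2B rose by 4.29 (SE 0.18, adjusted p 5.3e-09) and 2.89 (SE 0.18, adjusted p 7.2e-08). SWEET12 was near silence in control, with 5.65, 7.51 and 5.2 FPKM under mannitol, against 0.35, 0.152 and 0.154 FPKM in control, and rose by 2.54, while SWEET13 rose by 1.86. SWEET4 (154, 145 and 132 FPKM under mannitol, against 83.2, 173 and 134 FPKM in control) and SWEET11 (log2 change 0.42, adjusted p 0.056) did not pass.

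The genes that split sucrose moved in opposite directions. Sucrose synthase cleaves sucrose to UDP-glucose and fructose, and invertase cleaves it to glucose and fructose. SUS1 (LOC_Os03g28330), the most abundant of the 4 sucrose synthase genes in control, had 443, 513 and 455 FPKM in the mannitol libraries, against 1588, 1542 and 1731 FPKM in the control libraries. SUS4 (LOC_Os03g22120) went the other way, with 149, 145 and 122 FPKM under mannitol, against 24.4, 27 and 28.1 FPKM in control. SUS1 changed by -1.78 (SE 0.10, adjusted p 2.7e-08) on the log2 scale and SUS4 by 2.35 (SE 0.11, adjusted p 9.8e-09), and neither gene had overlapping groups. SUS1 stayed the more abundant of the pair under mannitol. SUS3 was low in both groups and rose by 1.27. The cell wall invertase gene CIN2 (LOC_Os04g33740) had 5.63, 4.29 and 5.3 FPKM under mannitol, against 24.6, 24.4 and 24.7 FPKM in control, a fall of 2.08 on the log2 scale (SE 0.16, adjusted p 4e-07). In all, 6 of 9 genes for sucrose use and transport rose and 3 fell. All 4 starch synthesis genes that met the rule rose. SS1 (LOC_Os06g06560), a soluble starch synthase, had 49.6, 51.8 and 39.3 FPKM under mannitol, against 7.61, 6.79 and 7.58 FPKM in control, and SBE1 (LOC_Os06g51084), which branches the chains, had 97.4, 109.7 and 93.8 FPKM under mannitol, against 30.3, 35.4 and 38.3 FPKM in control. They rose by 2.52 (SE 0.11, adjusted p 5.2e-09) and 1.51 (SE 0.09, adjusted p 3.5e-08). The debranching enzyme gene ISA1 rose by 0.66 and AGPS2, a subunit of the enzyme that makes ADP-glucose, by 0.37.

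Chlorophyll genes moved by role. Of 7 chlorophyll synthesis genes 6 fell and 1 did not pass (median log2 change -1.02), while of 4 breakdown genes 3 rose and 1 fell (median 1.08). CHLI (LOC_Os03g36540) and CHLD (LOC_Os03g59640) encode subunits of the chelatase that puts magnesium into the ring. CHLI had 51.5, 59.5 and 59 FPKM in the mannitol libraries, against 171, 168 and 164 FPKM in the control libraries, and CHLD had 35.5, 42.3 and 42.6 FPKM under mannitol, against 126, 110.1 and 116 FPKM in control. They changed by -1.55 (SE 0.10, adjusted p 8.2e-08) and -1.53 (SE 0.11, adjusted p 2.6e-07). HEMA1, at the start of the pathway, and CHLG, at its end, fell (-1.1 and -1.02). PORA, a protochlorophyllide oxidoreductase, had 231, 251 and 294 FPKM under mannitol, against 247, 284 and 233 FPKM in control and did not pass (adjusted p 0.9). On the breakdown side, SGR (LOC_Os09g36200), the stay-green gene whose product removes magnesium from chlorophyll, had 16.8, 15.5 and 18.6 FPKM under mannitol, against 3.87, 4.09 and 3.13 FPKM in control. RCCR1 (LOC_Os10g25030), a reductase of red chlorophyll catabolite, had 21.7, 14.1 and 16.6 FPKM under mannitol, against 5.74, 4.43 and 4.62 FPKM in control. The groups did not overlap for either gene, and SGR and RCCR1 rose by 1.94 (SE 0.11, adjusted p 3.9e-08) and 1.62 (SE 0.14, adjusted p 7.2e-07). NYC1, a chlorophyll b reductase, rose by 0.53, and its relative NOL fell by 0.46 on the log2 scale.

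Photosynthesis genes, of which 5 were named and only 1 (PSAH) was of photosystem I, did not all share this pattern. RCA (LOC_Os11g47970), the Rubisco activase gene, had 1245, 1370.0 and 1702 FPKM in the mannitol libraries, against 4196, 3214 and 3689 FPKM in the control libraries. Its level under mannitol was below that of every control library, with a log2 change of -1.37 (SE 0.15, adjusted p 8e-06). The Calvin cycle gene FBP1 fell too (log2 change -0.71). The light-harvesting genes CAB1R and CAB2R, among the most abundant of all named genes, had log2 changes of 0.11 and -0.25 and did not pass (adjusted p 0.41 and 0.1). CAB2R passed under median-of-ratios scaling (-0.36, adjusted p 0.045) and by limma-voom (-0.26, adjusted p 0.022), and CAB1R passed as higher under quantile normalization (0.32, adjusted p 0.012). The photosystem I subunit gene PSAH had a log2 change of 0.12 and did not pass (adjusted p 0.42).

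**Figure D3:**
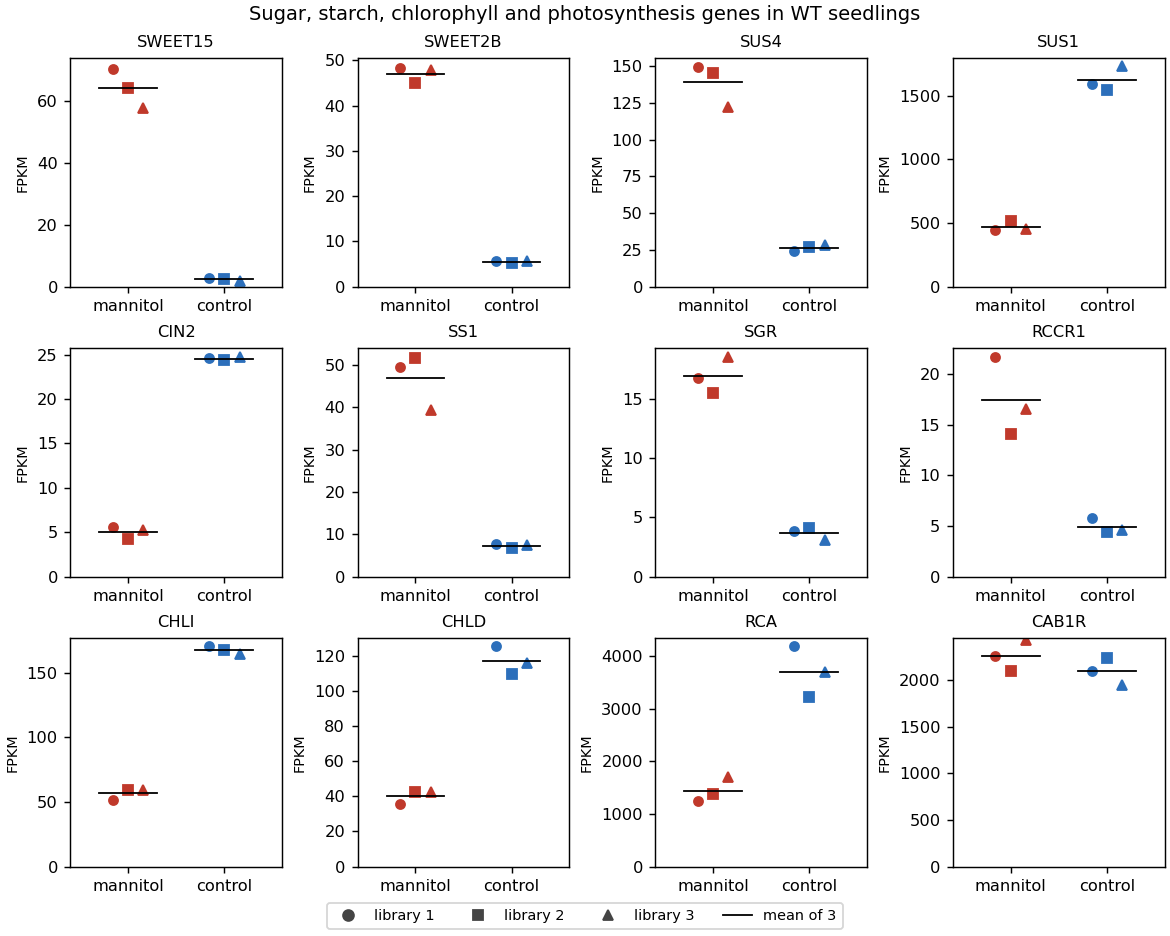
FPKM of 12 genes in each WT library (linear axes from 0, mannitol left, control right; circles, squares and triangles are libraries 1, 2 and 3, and bars are means of 3). SWEET15, SWEET2B, SUS4, SS1, SGR and RCCR1 lie higher under mannitol, SUS1, CIN2, CHLI, CHLD and RCA lower, and the groups of CAB1R overlap.

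Nitrogen assimilation genes tied to the chloroplast fell with RCA. FDGOGAT (LOC_Os07g46460), the ferredoxin-dependent glutamate synthase, had 184, 185 and 220.3 FPKM under mannitol, against 506, 395 and 428 FPKM in control, and the plastid glutamine synthetase gene GS2 (LOC_Os04g56400) had 519.9, 519 and 564 FPKM under mannitol, against 994, 889 and 871 FPKM in control. They changed by -1.17 (SE 0.10, adjusted p 7.8e-07) and -0.78 (SE 0.09, adjusted p 1.6e-05). Of 8 nitrogen genes 6 fell and 2 rose. The cytosolic glutamine synthetase gene GS1-2, with 65.2, 49.8 and 50.1 FPKM under mannitol, against 176, 87.4 and 187 FPKM in control, fell (log2 change -1.37), as did the ammonium transporter gene AMT1-3 (-1.3). For both of these the control nearest to the mannitol libraries was WT control 2.

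Silicon and iron uptake genes fell, all 3 of the silicon list and 4 of 6 of the iron list. Rice roots take up silicic acid through the channel LSI1 and the exporter LSI2, and they acquire iron with phytosiderophores made from nicotianamine. LSI2 (LOC_Os03g01700) had 1.62, 1.89 and 2.79 FPKM in the mannitol libraries, against 97, 18.6 and 95.1 FPKM in the control libraries. LSI1 (LOC_Os02g51110) had 36.1, 35.6 and 33.7 FPKM under mannitol, against 199.9, 53.3 and 216 FPKM in control. LSI6 (LOC_Os06g12310), which unloads silicon in the shoot, had 9.32, 9.49 and 10.01 FPKM under mannitol, against 26.1, 21.5 and 28.8 FPKM in control. All 3 fell, with log2 changes of -4.22 (SE 0.46, adjusted p 6.1e-06) for LSI2, -1.88 (SE 0.39, adjusted p 0.0011) for LSI1 and -1.31 (SE 0.10, adjusted p 2.5e-07) for LSI6. WT control 2 was the lowest control for each, and without it the log2 changes were -4.99, -2.53 and -1.42. The nicotianamine synthase genes NAS1 (LOC_Os03g19427) and NAS2, close copies whose reads may have been shared, had similar values. For NAS1 they were 14.4, 11.6 and 8.13 FPKM under mannitol, against 179, 35.5 and 197 FPKM in control. YSL15 (LOC_Os02g43410), which carries the iron complex into cells, had 2.74, 1.33 and 2.57 FPKM under mannitol, against 43.4, 3.53 and 52.3 FPKM in control, and NAAT1, an aminotransferase of phytosiderophore synthesis, had 12.9, 10.4 and 7.12 FPKM under mannitol, against 47.6, 13.4 and 56 FPKM in control. The 4 genes fell, with log2 changes of -3.17 (SE 0.57, adjusted p 0.00036) for NAS1, -2.9 for NAS2, -2.81 (SE 0.70, adjusted p 0.0038) for YSL15 and -1.65 for NAAT1. Without WT control 2 the log2 changes were -3.96 for NAS1, -3.63 for NAS2, -3.95 for YSL15 and -2.27 for NAAT1, and without WT control 3 that of YSL15 was -2.17. IRT2 and NAS3 did not pass (adjusted p 0.087 and 0.082), and IRT2 passed without WT control 2 (-1.2, adjusted p 0.0007). Apart from LSI6, these genes were among the root markers above, so the low values of WT control 2 are the same values that set it apart. The falls of LSI1, LSI2, LSI6, NAS1, NAS2, YSL15 and NAAT1 were larger without that library than with it.

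Other root transporters rose in the same libraries. HKT2-1 (LOC_Os06g48810), which carries sodium and potassium, had 28.7, 26.3 and 26 FPKM in the mannitol libraries, against 1.68, 2 and 2.9 FPKM in the control libraries. HKT1-1 (LOC_Os04g51820), a sodium transporter, had 14.9, 11.4 and 11.2 FPKM under mannitol, against 2.56, 2.21 and 1.32 FPKM in control. Of 4 potassium and sodium genes 3 rose and HAK1 did not pass (adjusted p 0.2). The changes on the log2 scale were 3.15 (SE 0.19, adjusted p 6.3e-08) for HKT2-1, 2.17 (SE 0.27, adjusted p 1.8e-05) for HKT1-1 and 1.14 for the potassium channel gene AKT1. Among 8 phosphate genes 4 rose, 1 fell and 3 did not pass. PT8 (LOC_Os10g30790), a high-affinity phosphate transporter, had 44.4, 38.1 and 46 FPKM under mannitol, against 16.4, 9.72 and 14.8 FPKM in control and rose by 1.61 (SE 0.16, adjusted p 3.7e-06). SPX2, a sensor of phosphate status, and the transporter gene PT4 rose by 1.15 and 1.1. Without WT control 2 the rises of PT8, PT4, SPX2 and AKT1 were smaller, at 1.4, 0.86, 1.06 and 0.99. Those of HKT2-1 and HKT1-1 were then 3.11 and 2.22. PHO1-2 (LOC_Os02g56510), which exports phosphate to the xylem, had 3.02, 4.03 and 3.93 FPKM under mannitol, against 18, 9.14 and 18.9 FPKM in control and changed by -1.76 (SE 0.22, adjusted p 2e-05). Its control values were again lowest in WT control 2. PT2, with 1.77, 0.994 and 1.92 FPKM under mannitol, against 4.84, 0.496 and 5.56 FPKM in control, did not pass (adjusted p 0.25) but fell without WT control 2 (-1.29, adjusted p 0.00068). Of 5 zinc genes ZIP4 and ZIP8 rose (0.53 and 0.61), ZIP1 and ZIP5 fell (-0.93 and -0.5) and HMA2 did not pass (adjusted p 0.12). The call of ZIP8 was lost in 8 of 13 alternative fits and that of ZIP1 in 4.

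**Figure D4:**
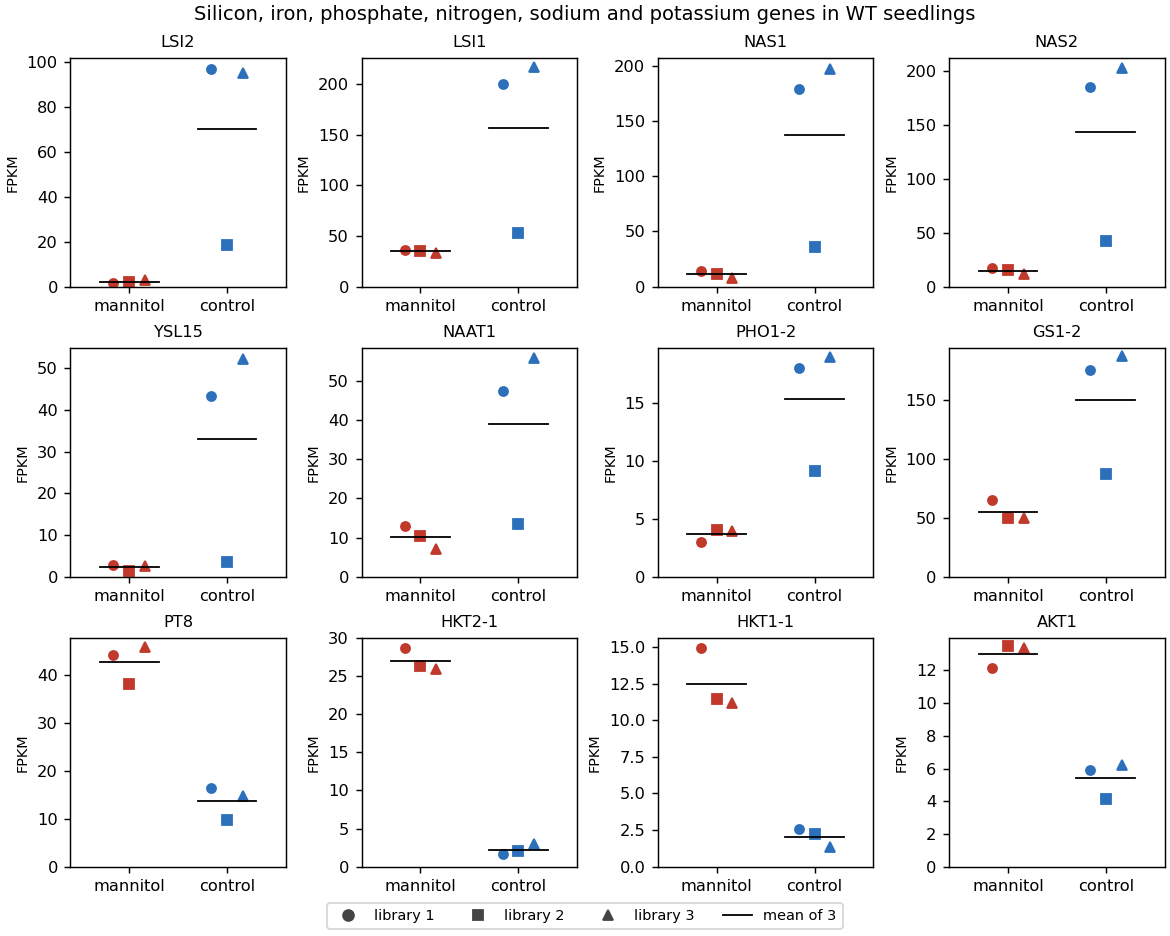
FPKM of 12 transport and assimilation genes in each WT library (linear axes from 0, mannitol left, control right; circles, squares and triangles are libraries 1, 2 and 3, and bars are means of 3). For LSI2, LSI1, NAS1, NAS2, YSL15, NAAT1, PHO1-2 and GS1-2 the square of WT control 2 lies between the mannitol libraries and the other 2 controls, while PT8, HKT2-1, HKT1-1 and AKT1 lie higher under mannitol.

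Aquaporin genes, whose products are water channels of the plasma membrane (PIP) and the vacuole membrane (TIP), moved both ways. Of 15, 7 rose, 3 fell and 5 did not pass, with a median log2 change of 0.24. PIP1-3 (LOC_Os02g57720) had 143, 137 and 124 FPKM under mannitol, against 50.4, 50.6 and 62.1 FPKM in control, and PIP2-7 (LOC_Os09g36930) had 70.8, 96.3 and 105 FPKM under mannitol, against 209.8, 165 and 184 FPKM in control. Their changes were 1.3 (SE 0.15, adjusted p 1.2e-05) and -1.04 (SE 0.15, adjusted p 5.4e-05). PIP2-5 rose by 0.82 and PIP2-6 fell by 0.80 on the log2 scale. Without WT control 2 the counts were 6 rising and 5 falling, and with median-of-ratios scaling 5 rising and 3 falling.

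With all libraries, cytokinin response genes gave the lowest list median. Without WT control 2 the iron list had a lower one (-2.95, against -2.23 with all libraries). Type-A response regulators are switched on by cytokinin within minutes and restrain its signal. All 7 that met the rule fell (median log2 change -2.62), and the mannitol libraries lay below the control libraries for each. RR10 (LOC_Os12g04500) had 1.89, 2.75 and 2.84 FPKM in the mannitol libraries, against 42.1, 43.8 and 55.6 FPKM in the control libraries, and RR2 (LOC_Os02g35180) had 3.52, 4.3 and 3.94 FPKM under mannitol, against 40.3, 37.7 and 42.3 FPKM in control. The log2 change was -3.79 (SE 0.15, adjusted p 3e-09) for RR10, -3.06 (SE 0.12, adjusted p 3.6e-09) for RR2, -2.85 for RR9 and -2.62 for RR1. The enzymes around the hormone moved apart. LOG (LOC_Os01g40630), which releases active cytokinin, had 22, 22.8 and 25.8 FPKM under mannitol, against 59.6, 54.2 and 52.4 FPKM in control. CKX11 (LOC_Os08g35860), an oxidase that degrades it, had 36.3, 30.9 and 31.7 FPKM under mannitol, against 9.21, 10.4 and 10.1 FPKM in control, while CKX3 (LOC_Os10g34230), another oxidase, had 0.92, 0.996 and 0.817 FPKM under mannitol, against 5.75, 4.58 and 6.14 FPKM in control. On the log2 scale LOG changed by -1.2 (SE 0.07, adjusted p 6.6e-08), CKX11 by 1.64 (SE 0.10, adjusted p 4.1e-08) and CKX3 by -1.76 (SE 0.14, adjusted p 4.1e-07). CKX4 rose by 0.68, and CKX5 did not pass (adjusted p 0.93).

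Gibberellin genes moved both ways, in synthesis as in perception. CPS1 (LOC_Os02g17780) and KAO (LOC_Os06g02019), of the early and middle steps of synthesis, had log2 changes of -1.43 (SE 0.13, adjusted p 1.2e-06) and -1.46 (SE 0.17, adjusted p 8.9e-06). CPS1 stood at 1.33, 2.55 and 1.75 FPKM under mannitol, against 6.95, 6.22 and 6.85 FPKM in control. The receptor gene GID1 (LOC_Os05g33730) had 57.3, 57.9 and 63.1 FPKM under mannitol, against 20.3, 19.3 and 19.8 FPKM in control and rose by 1.54 (SE 0.09, adjusted p 5.3e-08), whereas GID2, an F-box protein gene of the same perception step that was named after its value was seen, fell (log2 change -0.82). GA20OX2, a late synthesis gene known as the semi-dwarf locus, rose by 0.9. The repressor gene SLR1 had a log2 change of 0.05 and did not pass (adjusted p 0.45). Of 8 gibberellin genes 4 fell and 2 rose. Among brassinosteroid genes, the synthesis genes DWARF4, D11 and D2 fell, with log2 changes of -1.09, -0.48 and -0.35, while BRD1, also of synthesis, did not pass (log2 change -0.01, adjusted p 0.97). The call of D2 was lost in 3 of 13 alternative fits. The transcription factor gene BZR1 fell (log2 change -0.41). Of 7 brassinosteroid genes 4 fell, the receptor gene BRI1 alone rose (0.34) and BRD1 and BAK1 did not pass.

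Aux/IAA genes, which encode short-lived repressors of auxin response, moved both ways. Of 20 that met the rule 12 rose, 5 fell and 3 did not pass (median log2 change 0.36), beside 38.8% higher and 25.6% lower of all loci. By 1 log2 unit or more, 2 rose and 0 fell, beside 8.52% and 5.67% of all loci. Among those that rose, the call of IAA4 was lost in 9 of 13 alternative fits, that of IAA21 in 3 and that of IAA23 in 1. IAA20 (LOC_Os06g07040) had 15.2, 18.6 and 16 FPKM under mannitol, against 3, 2.89 and 3.16 FPKM in control and IAA9 (LOC_Os02g56120) had 5.4, 6.14 and 5.26 FPKM under mannitol, against 0.596, 0.862 and 0.741 FPKM in control. IAA20, IAA9 and IAA6 rose by 2.13 (SE 0.10, adjusted p 1.1e-08), 1.93 and 0.97. IAA11 fell with overlapping groups (log2 change -0.97, -1.37 without WT control 2), and it did not pass without WT control 1 (-0.72, adjusted p 0.052). The auxin-conjugating enzyme gene GH3-8 (LOC_Os07g40290) rose by 1.49 (SE 0.17, adjusted p 1e-05). Of the efflux carrier genes PIN5A fell (log2 change -1.07) and PIN2 did not pass, and GH3-2 did not pass either.

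Several jasmonate genes rose. Of 11 JAZ repressor genes 7 rose, 1 fell and 3 did not pass. TIFY11D (LOC_Os10g25290) had 19.9, 20.4 and 18.8 FPKM under mannitol, against 3.88, 4.81 and 3.1 FPKM in control. TIFY11D, TIFY11C, TIFY11B and TIFY11E rose by 2.08, 2.07, 1.24 and 1.1. Of 8 genes for jasmonate synthesis and perception 4 rose, none by more than 0.63 (the receptor gene COI1B), and 4 did not pass. The ethylene receptor gene ERS1 rose by 0.83 and ETR2 fell by 0.31. ACO1 of ethylene synthesis and the transcription factor EIL1 rose by 0.6 and 0.59, and EIN2 did not pass (adjusted p 0.26). D17 and D3 of the strigolactone list rose by 0.69 and 0.3, and D14 did not pass (adjusted p 0.064).

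**Figure D5:**
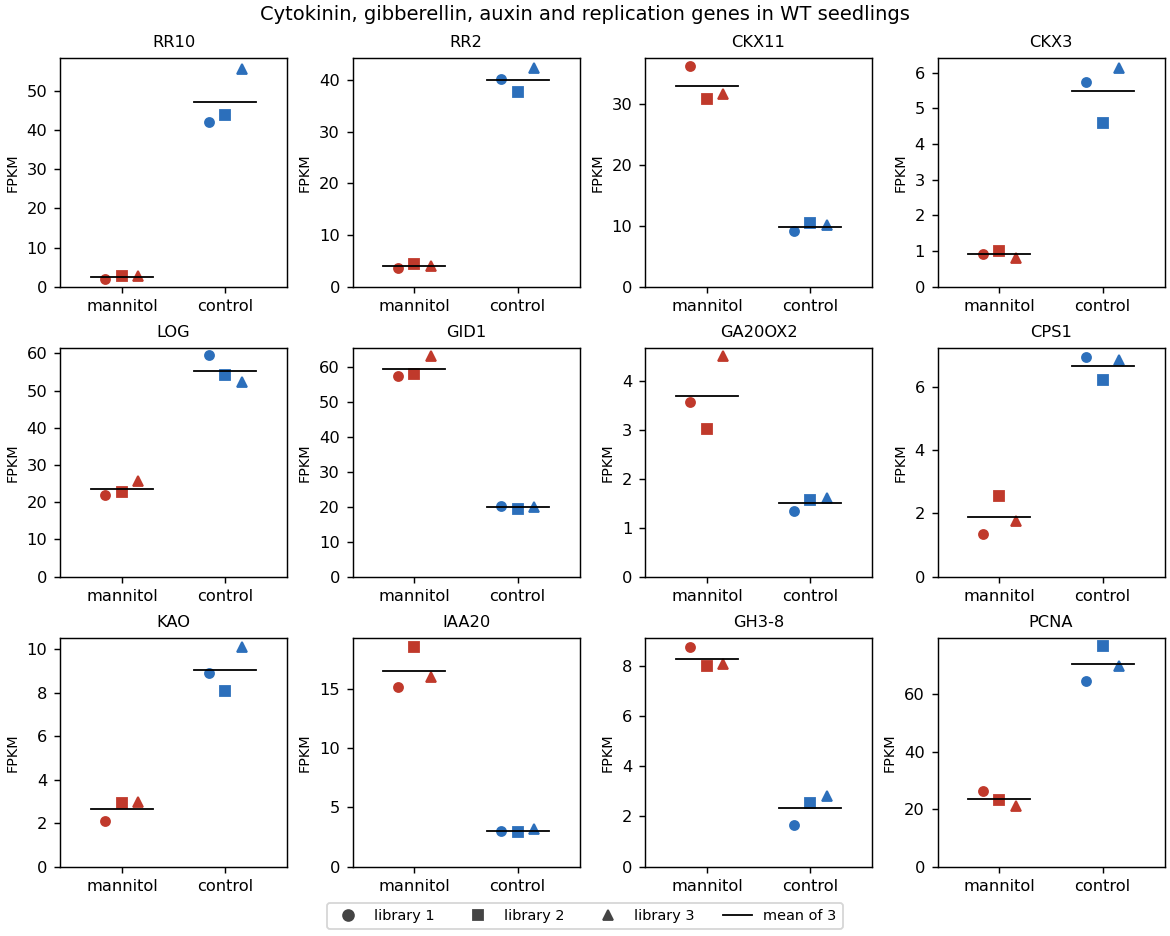
FPKM of 12 hormone and growth genes in each WT library (linear axes from 0, mannitol left, control right; circles, squares and triangles are libraries 1, 2 and 3, and bars are means of 3). RR10, RR2, CKX3, LOG, CPS1, KAO and PCNA lie lower under mannitol and CKX11, GID1, GA20OX2, IAA20 and GH3-8 higher, with no overlap between groups.

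Genes of DNA replication and the cell cycle fell, KRP1 apart. All 8 replication genes fell (median log2 change -0.78). PCNA (LOC_Os02g56130), the sliding clamp of DNA polymerase, had 26.3, 23.1 and 21 FPKM in the mannitol libraries, against 64.5, 76.7 and 69.9 FPKM in the control libraries, a change of -1.55 (SE 0.10, adjusted p 7.9e-08). The helicase subunit genes MCM7, MCM4 and MCM5 fell, with log2 changes of -0.95, -0.8 and -0.79. Of 9 cell cycle genes 8 fell, and the inhibitor gene KRP1 did not pass (log2 change -0.02, adjusted p 0.85). KRP4, an inhibitor gene of the same family that was named after its value was seen, fell (log2 change -0.61). CYCB2-2 and CYCB1-1, mitotic cyclins, and CDKB2-1, a mitotic kinase, fell, with log2 changes of -1.06, -0.99 and -1.02. CDKB2-1 stood at 16.1, 15.8 and 14.6 FPKM under mannitol, against 28.4, 35.9 and 33.2 FPKM in control. CYCB2-1 fell by 0.79. The tubulin genes TUBB7 and TUBA1 fell (-0.84 and -0.26), and the call of TUBA1 was lost in 5 of 13 alternative fits, with an adjusted p of 0.64 under quantile normalization. The root patterning genes SHR1 and SCR1 fell (-0.92 and -0.47).

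Cell wall genes showed no common direction. Of 14 expansin genes, which loosen walls during growth, 3 rose, 5 fell and 6 did not pass. EXPB3 (LOC_Os10g40720) had 27.5, 31.5 and 31.3 FPKM under mannitol, against 82.3, 81.6 and 86.7 FPKM in control and EXPA4 (LOC_Os05g39990) had 19, 16 and 21.6 FPKM under mannitol, against 45.8, 49.9 and 45.2 FPKM in control. EXPB3, EXPA4 and EXPA2 fell, with log2 changes of -1.44, -1.28 and -1.24, and EXPA5 rose by 1.18. Of 9 cellulose synthase genes CESA3 rose (0.4, adjusted p 0.0049) and 8 did not pass, with a list median of -0.04. Among growth factors, WOX11 (LOC_Os07g48560), a homeobox gene of crown root formation, had 4.58, 4.74 and 4.69 FPKM under mannitol, against 0.682, 0.64 and 0.848 FPKM in control and rose by 1.72 (SE 0.11, adjusted p 9.2e-08). GRF1, GRF6 and OSH6 fell (-0.59, -0.43 and -0.4), and 3 did not pass. The call of OSH6 was lost in 2 of 13 alternative fits.

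Many stress kinase and factor genes outside the ABA lists rose. All 6 CBL and CIPK genes, of a calcium sensor and kinase network, rose. CIPK15 (LOC_Os11g02240) had 110.2, 99.6 and 104 FPKM under mannitol, against 34, 34 and 36.9 FPKM in control and rose by 1.56 (SE 0.17, adjusted p 6e-06), and CBL4, CBL1 and CIPK12 by 0.81, 0.57 and 0.56. Of 7 calcium-dependent kinase genes CPK4, CPK13 and CPK7 rose by 0.87, 0.87 and 0.34, CPK1 fell by 0.26 and 3 did not pass. The call of CPK7 was lost in 5 of 13 alternative fits, both other scalings among them. The MAP kinase gene MPK3 (LOC_Os03g17700) had 28.1, 28.6 and 31.7 FPKM under mannitol, against 10.8, 7.4 and 9.38 FPKM in control and rose by 1.59 (SE 0.15, adjusted p 1.8e-06), whereas MPK6 had a log2 change of -0.07 and did not pass (adjusted p 0.37). WRKY71 (LOC_Os02g08440) had 19.9, 17.95 and 21.3 FPKM under mannitol, against 3.08, 2.47 and 1.74 FPKM in control and rose by 2.61 (SE 0.21, adjusted p 5.9e-07). WRKY24 and WRKY51 rose by 1.2 and 1.04, and the other 2 WRKY genes did not pass. SAP1, SAP8, SAP11 and SAP4, of the stress-associated zinc finger family, rose by 1.14, 0.79, 0.51 and 0.35, and SAP9 did not pass.

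Heat shock factors rose by small amounts. Of 8, 7 rose and HSFA2D fell, and the largest rises were those of HSFC1B (0.91), HSFB2C (0.82), HSFA3 (0.75) and HSFA4D (0.72). Of 16 small heat shock and chaperone genes 8 rose and 8 did not pass, beside 38.8% of all loci that rose. The calls of HSP18.0 and HSP81-1 were lost in 6 and 5 of 13 alternative fits, both other scalings among them. HSP16.9B, with 24.4, 26.2 and 14.4 FPKM under mannitol, against 4.99, 7.44 and 11.6 FPKM in control, rose by 1.35 (SE 0.36, adjusted p 0.0053), and it is a close copy of HSP16.9A and HSP16.9C, so its reads may have been shared. HSP17.4, HSP101 and HSP17.9A rose by 1.24, 1.23 and 1.04. HSP16.9A, with 103, 93.6 and 61 FPKM under mannitol, against 15.4, 73.6 and 69.1 FPKM in control, did not pass, and WT control 1 was its lowest library.

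Of 12 antioxidant genes 5 rose, 2 fell and 5 did not pass. GRC2 (LOC_Os02g56850), a glutathione reductase, had 146, 127 and 135 FPKM under mannitol, against 49.6, 39.1 and 46.4 FPKM in control and rose by 1.58 (SE 0.09, adjusted p 3.8e-08). The superoxide dismutase genes SODCC2 and SODA rose by 1.16 and 0.51, and the plastid form SODCP fell by 0.47 (adjusted p 0.046), a call that was lost in 6 of 13 alternative fits. Of the phenylpropanoid genes CAD2 and 4CL3 rose by 0.82 and 0.74, and CHS, which opens the flavonoid branch, fell by 0.83. Among 9 diterpenoid phytoalexin genes CYP99A3, CPS2 and CYP71Z7 fell (-1.52, -1.18 and -0.73), CYP701A8 rose by 0.93 and 5 did not pass. The call of CYP71Z7 was lost in 5 of 13 alternative fits. Of 5 fermentation and low-oxygen genes ADH2, HB1 and PDC2 fell, and AMY3D and ADH1 rose. The calls of ADH1 and PDC2 were each lost in 4 of 13 alternative fits and that of HB1 in 2, so that ADH2 alone fell without WT control 3 and without WT mannitol 3. AMY3D had 2.72, 2.24 and 2.04 FPKM under mannitol, against 0.00916, 0.185 and 0.0538 FPKM in control, and ADH2, with 16.1, 13.6 and 16.4 FPKM under mannitol, against 43.8, 15.8 and 50.7 FPKM in control, fell by 1.05 with overlapping groups. The log2 change of ADH2 was -1.56 without WT control 2 and -0.75 without WT control 3. Of 4 seed storage and amylase genes the glutelin gene GLUA1 rose by 0.47, at about 1 FPKM, and GLUA2, AMY1A and AMY3E did not pass. The pathogenesis-related gene PBZ1 did not pass (adjusted p 0.56).

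Clock genes changed little, in seedlings that the labels place under light and dark cycles. Of 8, LUX fell by 0.67, GI and PRR95 rose by 0.34 and 0.16 and 5 did not pass, LHY among them (log2 change 0.15, adjusted p 0.28). The call of PRR95 was lost in 4 of 13 alternative fits, with an adjusted p of 0.39 under median-of-ratios scaling. Of the phytochrome genes PHYA rose by 0.47 and PHYC and PHYB fell (-0.58 and -0.3).

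Genes commonly used to normalize quantitative PCR in rice differed between the groups for 3 of 4 genes examined. ACT1 (LOC_Os03g50885) had 181, 178 and 160.2 FPKM in the mannitol libraries, against 275, 313 and 291 FPKM in the control libraries. EF1A (LOC_Os03g08010) had 307, 303 and 289 FPKM under mannitol, against 429.8, 518 and 493 FPKM in control, and GAPC2 (LOC_Os04g40950), a glycolytic enzyme gene, had 304, 299.6 and 276 FPKM under mannitol, against 464, 535 and 504 FPKM in control. For each of the 3 every mannitol library lay below every control library. Their log2 changes came to -0.76 (SE 0.08, adjusted p 2.8e-06), -0.67 (SE 0.08, adjusted p 1.2e-05) and -0.77 (SE 0.07, adjusted p 2.4e-06). These 3 genes fell in all 13 alternative fits, both other scalings included. EIF4A, with 192, 209 and 184 FPKM under mannitol, against 198, 219 and 229 FPKM in control, did not pass (log2 change -0.14, adjusted p 0.18), and it fell under median-of-ratios scaling (-0.24, adjusted p 0.019).

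Of the 370 named genes tested, 35 had a mannitol response that differed between raf-b2/3 and WT by the interaction term (adjusted p under 0.05), beside 2.98% of all loci. For 22 of them the raf-b2/3 log2 change was the smaller in value and for 13 the larger. SUS4 and SWEET12 were among the 22, and CIN2 and LOG were among the 13.

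A minority of the loci called higher were followed by another along the chromosomes, by their locus numbers, though a larger share than over all loci. The next tested locus was also higher for 264 of 1822 higher loci (14.5%), beside 8.52% of all loci tested. For lower loci it was 97 of 1212 (8%), beside 5.67%. Neighbouring loci can be tandem copies that share reads, and overlapping loci could have been counted together, so these shares are a description. Of runs of 4 or more tested loci that were all higher there were 5, on chromosomes 1, 3, 4, 6 and 11. The run on chromosome 11, from LOC_Os11g26750 to LOC_Os11g26790, is that of RAB16D, RAB16C, RAB16B and RAB16A. A single run of 4 lower loci, from LOC_Os12g27220 to LOC_Os12g27350, lay on chromosome 12.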

How the data were processed

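RNA was measured in 12 libraries of whole rice seedlings, and the response in the 6 WT libraries is the main subject. Libraries were strand-specific and read in pairs of 150 bases, per the labels' protocols. The authors deposited FPKM values for 29358 loci, with their own group means, log2 fold changes and p-values, and only the per-library FPKM values were used here. Trimmomatic, DESeq2, edgeR and the build IRGSP-1.0 are named in the submitters' processing notes, while aligner, annotation release and strand setting are not given in the sources used, so reads of overlapping, antisense or near-identical genes may not have been told apart. limma-trend (limma 3.58.1, R 4.3.3) was fitted to log2(FPKM + 1) of all 12 libraries with a mean for each group (12.1 degrees of freedom), over loci that reached an FPKM of 1 in 3 or more of the 6 WT libraries. P-values were Benjamini-Hochberg adjusted over all 21409 loci. Loci were called at an adjusted p under 0.05 with a log2 change of at least 1, and list members counted at the adjusted p alone. The fit was tested on simulated data. Whole fragments could be recovered from the FPKM steps for 29357 loci (tolerance 0.01 fragment), which gave the depths and the fragments for limma-voom.

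The table has no gene names. Of 526 entries pairing a name with a locus number, 396 were kept because their symbol lies on the same chromosome of the reference gene table ASM3414082v1, at the place interpolated from the other entries (within 300 kb, or 1500 kb at chromosome ends). Coordinates are not printed, since the builds differ. The lists and members were chosen with earlier results of these data known. In each list up to 4 passing members with the largest change are named, with members that did not pass where a count needs them, the 10 largest rises and falls over all list genes, and at most 2 risers and 2 fallers without a name, and some list genes that this rule names are not reported here. Alternatives were other scalings, pseudocounts and filters, WT libraries only, a replicate block, limma-voom and each WT library left out.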

Additional observations from a re-analysis of the deposited data

Results flagged for a closer look

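The response to mannitol differed between raf-b2/3 and WT, by limma's interaction term at a Benjamini-Hochberg adjusted p under 0.05, for 35 of the 370 named genes tested, beside 2.98% of all loci. The values below are the raf-b2/3 log2 change minus the WT log2 change. Both responses use all control and mannitol libraries of their line, WT control 2 and WT control 3 included. Without WT control 3 the WT log2 change was 4.08 for LEA3-1, against 4.76 with it, and 4.13 for RAB16C, against 4.6. For RAB16D it was 6.93, against 6.73. The interaction was not examined with a library left out. For 22 genes the value was negative. Among the LEA and phosphatase genes these were RAB16D (-3.27), LEA3-1 (-3.11), RAB16C (-2.89), EMP1 (-2.02), PP2C51 (-1.42), PP2C08 (-0.87) and PP2C06 (-0.45). RAB16D had a log2 change of 3.46 in raf-b2/3, against 6.73 in WT. Among sugar and chlorophyll genes they were SWEET12 (-2.23), SUS4 (-1.37), SUS3 (-1.12), RCCR1 (-0.84) and SWEET13 (-0.82). SUS4 had a log2 change of 0.98 in raf-b2/3, against 2.35 in WT. The others were ABA8OX2 (-0.98), IAA9 (-0.92), SAPK3 (-0.83), HOX6 (-0.74), AKT1 (-0.71), SAPK1 (-0.67), NAC2 (-0.66), P5CS1 (-0.60), PIP1-2 (-0.59) and PIP1-1 (-0.58).

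For 13 genes the value was positive. The chlorophyll synthesis genes CHLH (0.59), HEMA1 (0.67) and PORB (0.68), the expansin genes EXPB3 (0.63) and EXPA4 (0.75), and LOG (0.84) and CIN2 (0.94) fell in WT. CIN2 had a log2 change of -1.14 in raf-b2/3, against -2.08 in WT. HSFA2D (1.15) had a log2 change of 0.46 in raf-b2/3, against -0.69 in WT. IAA2 (0.65), AOS2 (0.90), EXPB11 (1.66) and TIFY10B (0.39) did not pass in WT, and CPK4 (0.38) rose in both lines, by 1.25 in raf-b2/3 and 0.87 in WT. On the log2(FPKM + 1) scale the added 1 shrinks the response of low genes, such as SWEET12 and EMP1, and more so where levels are lower. Its part in these interaction values was not tested.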

How the results depend on the processing

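Across 13 alternative fits the number of loci called higher ranged from 1522 to 2452 and lower from 1152 to 1741, beside 1825 and 1213 as reported, and no count moved by more than 1.5 times. The highest counts came from a pseudocount of 0.1 (2394 higher, 1678 lower) and limma-voom on recovered fragments (2452 and 1741). Quantile normalization gave 1522 and 1509, no filter 1842 and 1248, and only the 6 WT libraries 1823 and 1207. Leaving out 1 WT library in turn gave 1776 to 1933 higher and 1152 to 1255 lower, and 157 to 166 list genes higher with 97 to 106 lower, beside 169 and 103 as reported. Of 272 list genes called, 237 kept their call in all 13 fits and none changed sign in any. Leaving out WT control 2 ended 17 calls and gained 10, and leaving out WT mannitol 3 ended 18 and gained 3. The unpassed SAPK7 changed sign and passed as lower under quantile normalization (-0.14). Same-numbered mannitol and control libraries correlated only weakly in their deviations (-0.077, 0.133 and 0.053). Such values cannot tell whether the libraries were paired by design. With the replicate block 1825 loci were higher and 1212 lower, with 168 list genes higher and 103 lower. Genes near 1 FPKM rest on few fragments, and their log2 changes are the most shrunk.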
